A study of Mus musculus with 12 samples.

Results

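The genes described here are the kallikreins *Klk5*, *Klk6*, *Klk7*, *Klk8*, *Klk10* and *Klk11* and the genes that control epidermal proteolysis beside them, the inhibitors *Spink5* and *Spint1* and the membrane-anchored proteases *Prss8* and *St14*. They were chosen by gene name, and all 10 of the 10 listed genes were found among the 21947 loci of the count table. All 10 passed the filter on low counts. Reads of *Klk8* were counted together with those of *Klk14* and 2310002F09Rik, and reads of *Prss8* together with those of *Kat8*, so the values of these 2 rows cannot be assigned to 1 gene. They are called the *Klk8* row and the *Prss8* row.

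RNA-Seq was performed on primary keratinocytes, the main cell type of the epidermis, from neonatal BALB/c mice. The cultures were grown at 0.05 mM calcium and differentiated at 0.12 mM. They received 75 pmol of a SMARTpool of small interfering RNAs against *Sbsn* (siSbsn), the same amount of a non-targeting pool (siControl), or no siRNA, and RNA was taken 48 hours after transfection. Batch 1 held 2 libraries of each of these 3 conditions, and batch 2 held 3 siControl libraries, numbered 1 to 3, and 3 siSbsn libraries, numbered 4 to 6. The labels give no altered allele in any group. The siRNA lowers the transcript for a limited time. The study's methods give 3 replicates a condition, without saying whether these were separate animals, whereas batch 1 held 2 libraries of each. The labels do not say whether the libraries of a group came from separate cultures or animals. The p-values therefore measure only the spread between these libraries, which may be technical.

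Kallikreins are secreted serine proteases that are made as inactive precursors. In the epidermis, KLK5 and KLK7 cut the adhesion proteins of corneodesmosomes, so that the outermost cells can be shed, and KLK5 can activate itself and other kallikreins. The inhibitor LEKTI, the product of *Spink5*, holds them in check, and its loss causes Netherton syndrome. Matriptase (*St14*) and prostasin (*Prss8*) form a second protease cascade at the keratinocyte surface, which is inhibited by HAI-1 (*Spint1*).

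The 6 kallikrein genes lie in 1 cluster on mouse chromosome 7, all on the plus strand. The 300-base windows around the annotated starts of 4 of them are shown, because these genes had the 3 largest differences between the batches (*Klk6*, *Klk7* and the *Klk8* row) and the smallest difference among the kallikreins (*Klk11*). The sequences are from RefSeq (build GRCm38.p6), read 5′ to 3′ on the plus strand. Capitals mark the GC box, GGGCGG or its reverse complement CCGCCC.
Klk6, chr7:43824294-43824593: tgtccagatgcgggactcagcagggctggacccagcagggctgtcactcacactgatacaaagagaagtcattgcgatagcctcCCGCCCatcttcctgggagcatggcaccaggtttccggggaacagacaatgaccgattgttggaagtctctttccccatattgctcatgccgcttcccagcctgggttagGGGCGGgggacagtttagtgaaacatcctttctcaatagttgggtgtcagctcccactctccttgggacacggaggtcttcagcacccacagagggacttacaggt
Klk7, chr7:43811044-43811343: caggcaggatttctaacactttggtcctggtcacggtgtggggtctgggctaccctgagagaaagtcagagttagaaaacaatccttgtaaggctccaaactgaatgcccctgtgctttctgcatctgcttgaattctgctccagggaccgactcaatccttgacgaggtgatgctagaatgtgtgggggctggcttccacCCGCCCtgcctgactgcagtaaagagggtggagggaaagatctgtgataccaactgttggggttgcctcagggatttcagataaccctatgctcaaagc
Klk8, chr7:43797327-43797626: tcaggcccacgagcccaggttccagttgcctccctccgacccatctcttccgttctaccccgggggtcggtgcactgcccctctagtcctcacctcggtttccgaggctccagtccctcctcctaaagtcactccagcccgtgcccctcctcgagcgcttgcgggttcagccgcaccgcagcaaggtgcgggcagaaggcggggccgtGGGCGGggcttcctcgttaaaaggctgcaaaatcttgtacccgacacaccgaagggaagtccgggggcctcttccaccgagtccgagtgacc
Klk11, chr7:43774367-43774666: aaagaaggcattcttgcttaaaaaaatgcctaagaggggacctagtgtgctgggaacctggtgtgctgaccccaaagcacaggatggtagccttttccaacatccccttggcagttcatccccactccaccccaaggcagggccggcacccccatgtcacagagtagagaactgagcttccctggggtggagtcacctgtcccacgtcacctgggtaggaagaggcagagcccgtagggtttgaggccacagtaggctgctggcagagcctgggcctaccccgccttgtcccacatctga

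The window of *Klk6* held 2 GC boxes, those of *Klk7* and *Klk8* held 1 each, and that of *Klk11* held none. The RefSeq start of *Klk7* lies 150 bases before the start of the counted locus. *Klk6* and *Klk11* each have a second annotated start, with 1 GC box in the window of *Klk6* and none in that of *Klk11*. No GC box was found for *Klk10* or *Klk5*, and 3 were found for *Spint1*. On both strands, 35.7% of 32851 windows of the same length held a GC box. The TATA box TATAAA, which 13.6% of all windows held, was in none of the members' windows. The AP-1 element TGANTCA, which 7.81% of all windows held, was found once, in the window of *Spint1*. These letters are a description of the windows and not of the binding of a factor, and their relation to the batch differences was not tested. For the *Klk8* row, which also counts *Klk14*, only the start of *Klk8* is shown. *Prss8* and *St14* had no entry in the sequences used, and *Spink5* is named only.

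Total counts ranged from 27934836 to 49553923 per library. Levels are given as CPM, the count of a gene scaled to the effective size of its library, which is the total over the loci passing the filter times edgeR's TMM factor. *Sbsn*, the target of the siRNA, had 371, 332 and 459 CPM with siControl in batch 2, against 124, 125 and 121 CPM with siSbsn. In batch 1 it was at 1189 and 1356 CPM with siControl, and at 1965 CPM in the library labelled siSbsn replicate 1 and 697 CPM in replicate 2. The first of these goes against its label, since it was the highest of all 12 libraries. The difference between siSbsn and siControl in *Sbsn* was -1.64 on the log2 scale in batch 2 (SE 0.10, adjusted p = 0.00056) and 0.03 in batch 1 (SE 0.45, adjusted p = 0.975, edgeR). The siControl replicate 1 library of batch 1 also stood apart, with the highest level of the 12 libraries for *Klk6*, *Klk10*, *Klk11*, *St14*, *Spint1* and both joined rows. Several values below are therefore also given without one or both of these libraries.

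Levels of different genes were compared per kilobase of the longest annotated transcript, for the 8 genes counted in a row of their own. *Klk10*, a kallikrein of the epidermis and other epithelia, was the most abundant in both batches, at a median of 1367 CPM per kilobase in batch 1 and 609.5 in batch 2. Its range did not overlap that of any of the other 7. In batch 1 it was followed by *Klk6* (388), a trypsin-like protease, and *Klk7* (357), the chymotrypsin-like enzyme of corneodesmosome cleavage. The ranges of *Klk6* and *Klk7* overlapped each other and lay above those that followed. *Spink5* came next, at a median of 235 CPM per kilobase, with a range that overlapped that of *Spint1* (117), and *Spint1*, *St14* (116) and *Klk11* (90.7) overlapped in turn. *Klk5* was the lowest, at 35.9 CPM per kilobase in batch 1 and 9.89 in batch 2, below the other 7 genes in both batches. In batch 2 the 6 members between *Klk10* and *Klk5* lay between medians of 60.5 (*Klk6*) and 84.8 CPM per kilobase (*St14*), and each overlapped its neighbour in that order. The longest annotated transcript of *St14* (3550 bases) has a single exon, so its place in the order depends on that annotation.

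To see how the members varied between the batches, the batch term of the edgeR fit of the 10 libraries with siRNA was tested. A call needed an adjusted p (Benjamini-Hochberg) under 0.05 together with a log2-fold change beyond 0.5 in either direction, the thresholds of the study's methods. All members but the *Prss8* row were called, and all of these 9 were higher in batch 1. Among all 13211 loci tested, 21.6% were called higher in batch 1 and 16.4% lower. The median difference was 1.39 over the members and 0.02 over all loci, on the log2 scale. For the same 9 members the lowest library of batch 1 lay above the highest library of batch 2, for *Klk11* only when scaled to the effective size. The same was true of 16.5% of all loci tested, and 14.2% had all 6 libraries of batch 1 below all 6 of batch 2.

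**Figure D1:**
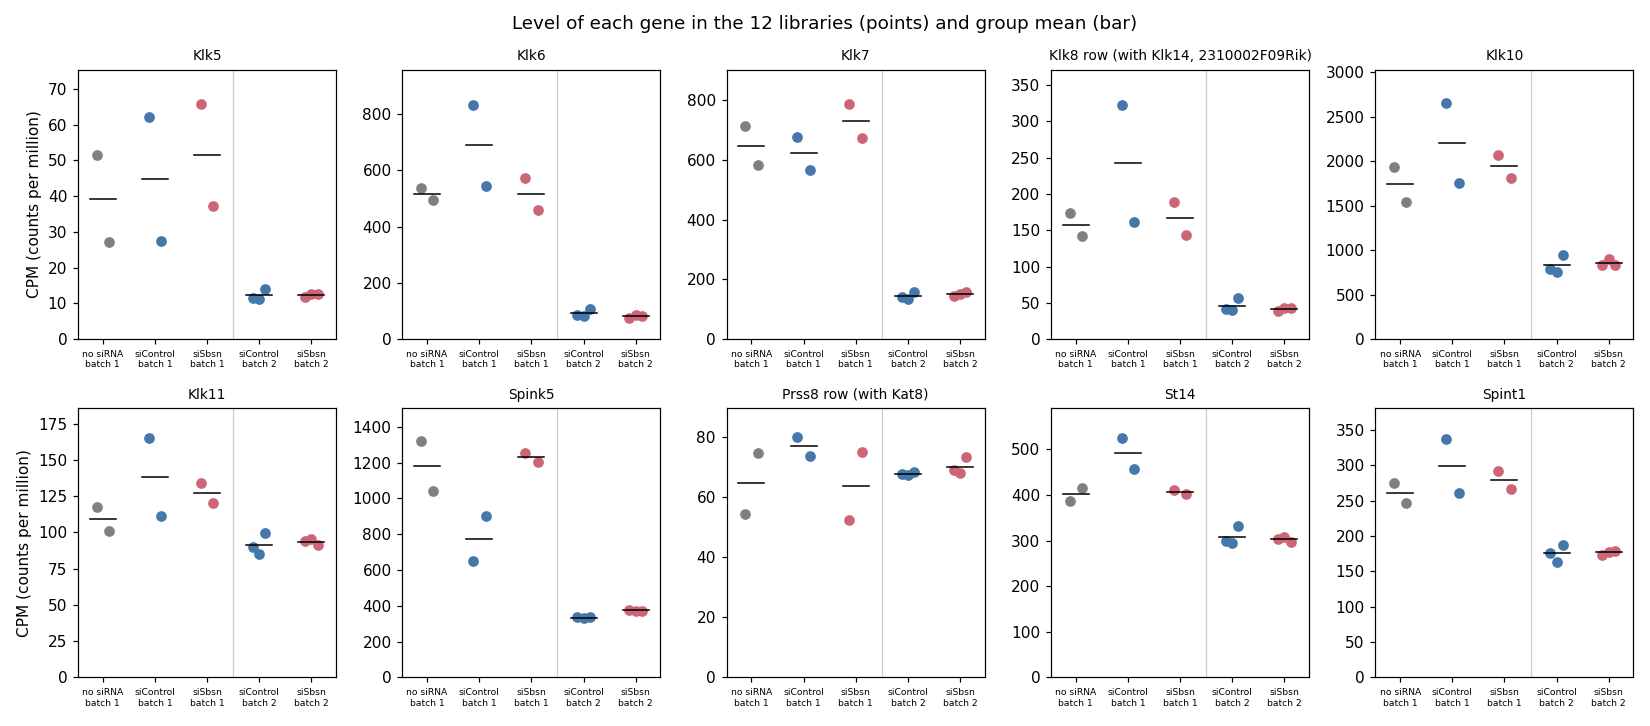
Level of each gene in CPM (vertical axes, from 0) in the 12 libraries, by treatment and batch. Points are libraries and bars are group means of 2 libraries (batch 1) or 3 libraries (batch 2), and the points of batch 1 lie above those of batch 2 in every panel but that of the *Prss8* row.

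Among the kallikreins, *Klk6* differed most. It was at 537 and 494 CPM without siRNA, 833 and 544 with siControl, and 572 and 461 with siSbsn in batch 1. In batch 2 it was at 85.1, 83.7 and 108 CPM with siControl and 76.3, 85.1 and 82.8 with siSbsn. It was higher in batch 1 by 2.79 on the log2 scale (SE 0.14, 6.91-fold, adjusted p = 6.2e-07), and the lowest library of batch 1, at 461 CPM, lay far above the highest of batch 2, at 108 CPM.

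*Klk7* was at 714 and 582 CPM without siRNA, 678 and 568 with siControl, and 788 and 675 with siSbsn in batch 1. In batch 2 its levels were 141, 136 and 157 CPM with siControl and 145, 151 and 158 with siSbsn. It was 4.58-fold higher in batch 1 (log2 2.20, SE 0.086, adjusted p = 1.35e-07), and its libraries were the least scattered of the 6 kallikreins within a batch, with the highest 1.39-fold above the lowest in batch 1 and 1.16-fold in batch 2.

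*Klk5*, the trypsin-like protease that can start the kallikrein cascade, was at 51.5 and 27.2 CPM without siRNA, 62.1 and 27.5 with siControl, and 65.8 and 37.4 with siSbsn in batch 1. In each condition of batch 1 the library numbered 1 was the higher of its pair, as it was for the other listed kallikreins, the *Klk8* row and *Spint1*. The share of all loci with this order was not counted. Over 13562 loci the deviations by replicate number correlated between the conditions (r = 0.379 to 0.805), so the order cannot be taken as particular to these genes. For *Klk5* the 6 libraries of batch 2 lay between 11.2 and 14.1 CPM. The batch difference was 1.96 (SE 0.22, 3.90-fold, adjusted p = 6.62e-05), and it was 1.38 without the number 1 libraries of siControl and siSbsn in batch 1. That alternative was chosen after the data were seen.

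The *Klk8* row covers *Klk8*, whose product neuropsin is a trypsin-like protease of upper epidermal layers, together with *Klk14*. It was at 142 to 323 CPM in batch 1, with a median of 167, and at 38.7 to 56.5 CPM in batch 2, with a median of 42.4 (log2 difference 2.20, SE 0.19, adjusted p = 1.48e-05). *Klk10* ranged from 1545 to 2660 CPM in batch 1 and from 751 to 950 CPM in batch 2, a 2.47-fold difference (log2 1.30, SE 0.12, adjusted p = 2.63e-05). *Klk11*, a trypsin-like kallikrein, differed least among the 6, with 101 to 165 CPM in batch 1 and 84.9 to 99.7 CPM in batch 2 (log2 0.52, SE 0.11, adjusted p = 0.00274).

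Of the genes that restrain or work beside the kallikreins, *Spink5* showed the largest difference between the batches. It was at 650 to 1319 CPM in batch 1 and at 332 to 378 CPM in batch 2, 2.78-fold higher in batch 1 (log2 1.47, SE 0.12, adjusted p = 8.44e-06). *Spint1* was at 247 to 338 CPM against 164 to 187 CPM (log2 0.72, SE 0.087, adjusted p = 0.000119). *St14* was at 387 to 525 CPM against 295 to 332 CPM (log2 0.55, SE 0.081, adjusted p = 0.000362). The *Prss8* row was at 52.6 to 80.3 CPM against 67.5 to 73.6 CPM, with a difference of 0.03 (95% interval -0.215 to 0.27, adjusted p = 0.843). The batches overlapped only there in CPM as defined above. When scaled to total counts instead, *Klk11* overlapped as well. It was then at 99.8 CPM without siRNA in replicate 2 of batch 1 and at 104 CPM in siControl replicate 3 of batch 2.

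The calls of *Klk11* and *St14* lie close to the threshold on the fold change, at 0.37 and 0.47 without siControl replicate 1 of batch 1, and at 0.32 and 0.48 without both number 1 libraries. *Klk11* was at 0.496 with DESeq2, which called 8 members, and at 0.16 after a correction for gene length. With the siControl libraries alone it was at 0.61 and was not called (adjusted p = 0.076). The call of *Klk11* was also lost at 0.49 without siSbsn replicate 1 of batch 1 or without siControl replicate 2 of batch 2.

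**Figure D2:**
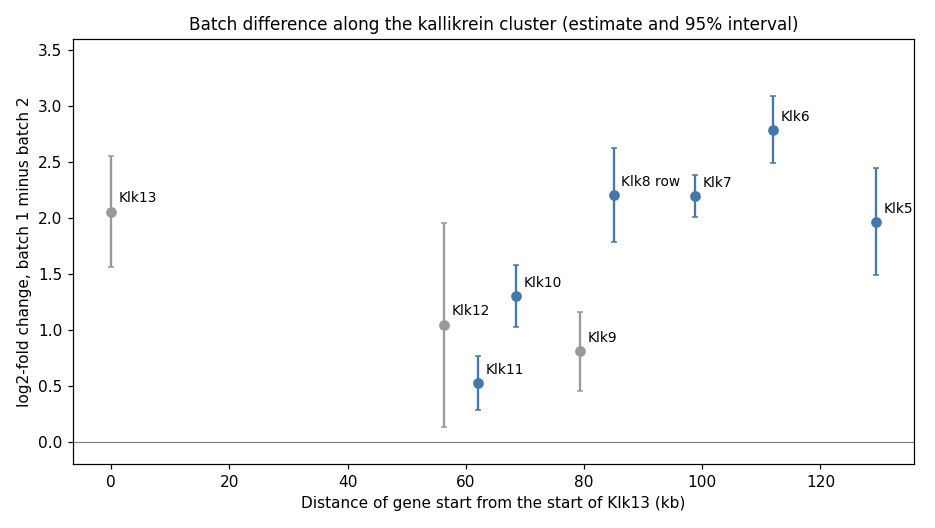
Difference between the batches (batch 1 minus batch 2, log2 scale, vertical axis) for the 9 tested loci of the kallikrein cluster against the distance of each gene start from that of *Klk13* in kb (horizontal axis). Points are edgeR estimates and bars are 95% intervals, with listed genes in blue and other kallikreins in grey, and the lowest value is 0.52 at *Klk11* and the highest 2.79 at *Klk6*.

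The batch difference was uneven along the cluster, which spans 173.2 kb from the start of *Klk13* to the end of *Klk4*. *Klk13*, with the lowest gene start of those plotted, differed by 2.06 on the log2 scale (SE 0.23, adjusted p = 6.36e-05). *Klk12*, which had only 3 to 27 counts per library, differed by 1.04 (SE 0.41) and was not called (adjusted p = 0.0516). Next to it lie *Klk11* and *Klk10*, with 0.52 and 1.30, and then *Klk9*, with 0.81 (SE 0.16, adjusted p = 0.00204) at 98 to 254 counts. The next 4 loci, the *Klk8* row, *Klk7*, *Klk6* and *Klk5*, differed by 1.96 to 2.79. *Klk4*, an enzyme of tooth enamel formation, lies beyond them and had 0 or 1 count in each library, so it was not tested. *Klk14* lies before *Klk13*, and its reads could not be separated from those of *Klk8*.

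Genes around the same proteolytic network were taken from a list of other proteases, inhibitors and substrates. Between the batches, 20 of the 25 other proteases tested were called higher in batch 1 and 0 lower, with a median log2 difference of 1.20. The largest differences were in *Tmprss11d*, a membrane-anchored serine protease (log2 3.81, adjusted p = 2.09e-05), at 0.973 to 2.13 CPM in batch 1 and 0.0523 to 0.161 in batch 2, and in *Prss27* (3.42, adjusted p = 1.06e-06), at 11.2 to 27.6 against 1.41 to 2.03 CPM. Of the 16 other inhibitors tested, 13 were called higher and 0 lower (median 1.38), led by *Slpi*, an inhibitor of serine proteases counted with Mir7678 (3.27, adjusted p = 1.42e-05), and the cysteine protease inhibitor *Cst6* (3.09, adjusted p = 7.35e-06). Of 18 substrates and cleaved proteins, 11 were higher and 2 lower, with a median of 0.86. With the libraries of batch 2 alone, 23 other proteases, 15 other inhibitors and 17 substrates passed the filter on low counts. A locus that passed only through its level in batch 1 could hardly be called other than higher there. *Cdsn*, the corneodesmosome protein cut by KLK5 and KLK7, was at 1796 to 3246 CPM in batch 1 and 414 to 507 CPM in batch 2 (2.47, adjusted p = 1.89e-06). *Scnn1b*, a subunit of the epithelial sodium channel that prostasin activates, differed by 2.80 (adjusted p = 4.74e-05) at low levels, 1.54 to 5.82 against 0.340 to 0.518 CPM. The falls were in *Flg2*, a filaggrin-like protein (-0.84, adjusted p = 0.036), and *Met*, the receptor for hepatocyte growth factor (-0.59, adjusted p = 0.0225). The batches overlapped in both, with *Flg2* at 0.793 to 4.24 against 2.87 to 5.81 CPM and *Met* at 68.3 to 178 against 152 to 201 CPM.

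Markers of the cultured cells moved with the batch as well. The summed level of 7 keratinocyte markers was 29830 to 50920 CPM in batch 1 and 25630 to 28720 CPM in batch 2, with *Krt5* and *Krt14* called higher and *Krt10* and *Dsp* lower in batch 1. Of 7 genes of later keratinocyte differentiation, *Ivl* (log2 2.31), *Lor* (1.81) and *Tgm1* (1.54) were called higher in batch 1 and *Krt10* lower (-0.998), while *Flg*, *Krt1* and *Tgm3* were not called. The summed level of 6 fibroblast markers was 413 to 1163 CPM against 358 to 421 CPM. Most of it was *Col1a1*, which was called higher in batch 1 (log2 0.75, adjusted p = 0.0236), while *Dcn* (-1.17) and *Lum* (-0.51) were called lower. The summed level of 5 melanocyte markers was 720 to 897 CPM against 990 to 1046 CPM. Immune markers summed to 2.51 to 9.3 CPM against 1.52 to 2.37, with *Cd207* at 0 in all 12 libraries. Sebocyte markers summed to 73.0 to 504 CPM against 41.7 to 51.5, nearly all of it *Scd1*. Endothelial and Merkel cell markers stayed under 4 CPM in sum in every library. The part of these markers in the batch difference of the members was not tested. In such bulk samples fewer cells of a type and less RNA per cell cannot be told apart, nor can cultures, animals, library preparation and sequencing of the batches.

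The comparison that the study was designed for, siSbsn against siControl with batch in the model, called 0 of the 10 members, and 0% of the 13211 loci tested. *Sbsn*, the target of the siRNA, was itself not called in it (log2 -0.96, SE 0.35, adjusted p = 0.256, edgeR). With edgeR, 1 member (*Spink5*) had an unadjusted p under 0.05, as had 2501 loci, or 18.9%. After the correction for gene length 5 members had one (*Klk5*, *Klk7*, *Klk10*, *Klk11* and *Spink5*, at 0.22 to 0.39), beside 2193 of 12600 loci. Again 0 members were called. DESeq2 called 92 of the 20053 loci it tested and limma-voom 0 of 13211, and neither called a member. Of the members, 3 had a fold change above 0 and 7 below, with a median of -0.03, beside 0.01 over all loci. Their differences ran from -0.29 in the *Klk8* row to 0.37 in *Spink5*.

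**Figure D3:**
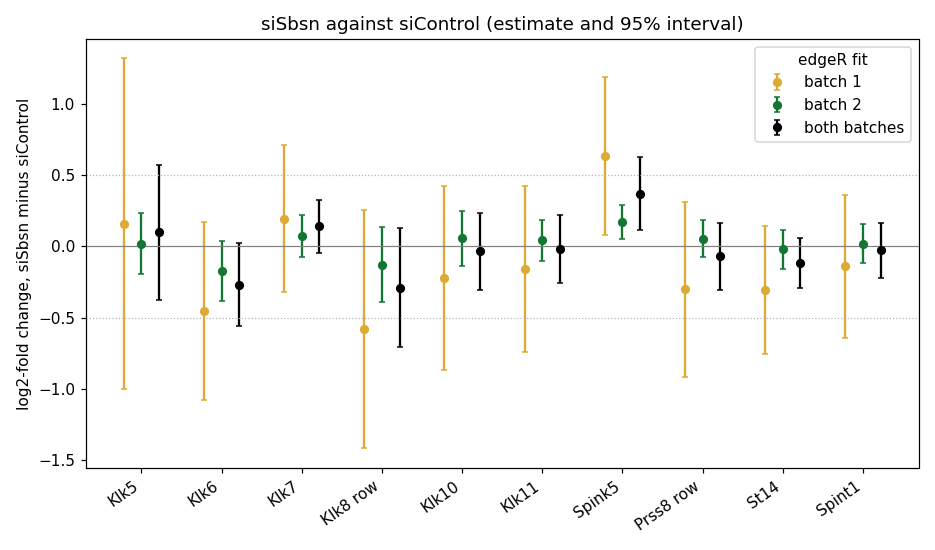
Difference between siSbsn and siControl (log2 scale, vertical axis) for each gene in batch 1, in batch 2 and in the fit over both batches. Points are edgeR estimates, bars are 95% intervals, and dotted lines mark the fold-change threshold of 0.5 in either direction. *Spink5* is the only gene with all 3 estimates and their bars above 0, and the bars of batch 1 are the widest for every gene.

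*Spink5* was at 650 and 902 CPM with siControl and at 1256 and 1205 CPM with siSbsn in batch 1. In batch 2 it was at 335, 332 and 337 CPM with siControl and at 378, 372 and 373 CPM with siSbsn. In both batches the lowest siSbsn library exceeded the highest siControl library, which held for no other member. Of all loci tested, 5.02% showed this in both batches, 25.4% in batch 1 and 9.39% in batch 2, and 4.12% had the siSbsn libraries below in both. The difference over both batches was 0.37 on the log2 scale (SE 0.12, 95% interval 0.11 to 0.63, 1.29-fold) and did not pass the correction (unadjusted p = 0.00885, adjusted p = 0.256, edgeR). It was 0.63 in batch 1 (SE 0.23, unadjusted p = 0.0305, adjusted p = 0.309) and 0.17 in batch 2 (SE 0.053, unadjusted p = 0.0115, adjusted p = 0.446). The test of the difference between the batches gave -0.49, batch 2 minus batch 1 (SE 0.18, unadjusted p = 0.0255, adjusted p = 0.299). In batch 1 the difference was 0.44 without siControl replicate 1 and 0.86 without siControl replicate 2 (adjusted p = 0.0498, a call, edgeR). The difference between the batches was -0.27 without the first of these and -0.75 without the second (adjusted p = 0.004, a call, edgeR). Without siControl replicate 1 of batch 1, which had the lowest *Spink5* of that batch, the difference over both batches was 0.25, and without both number 1 libraries it was 0.23. The siSbsn replicate 1 library of batch 1, at 1256 CPM, is the one whose *Sbsn* level went against its label. Without it alone the *Spink5* difference was 0.32 over both batches and 0.61 in batch 1.

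*Klk6* and the *Klk8* row were lower with siSbsn in the estimate, without passing the test. *Klk6* differed by -0.27 (SE 0.13, adjusted p = 0.269) over both batches, by -0.46 in batch 1 (SE 0.26, adjusted p = 0.376) and by -0.17 in batch 2 (SE 0.094, adjusted p = 0.511). The *Klk8* row was at 323 and 161 CPM with siControl and 190 and 144 CPM with siSbsn in batch 1, and at 41.7, 39.8 and 56.5 CPM against 38.7, 43.6 and 43.1 CPM in batch 2. Its difference was -0.29 (SE 0.19, adjusted p = 0.346). In both genes siControl replicate 1 was the highest library of batch 1 and siControl replicate 3 the highest of batch 2. Without siControl replicate 1 of batch 1 the differences over both batches were -0.15 for *Klk6* and -0.07 for the *Klk8* row. In batch 1 *Klk6* differed by -0.09 without that library and by -0.75 without siControl replicate 2 (adjusted p = 0.0535, edgeR), and the *Klk8* row by 0.04 and -1.01 (adjusted p = 0.0451, a call). In batch 2 *Klk6* differed by -0.06 without siControl replicate 3.

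*Klk7* differed by 0.14 (95% interval -0.05 to 0.33, adjusted p = 0.327) and *Klk5* by 0.10 (-0.38 to 0.57, adjusted p = 0.782). *St14* differed by -0.12 (-0.30 to 0.06, adjusted p = 0.357). In batch 1 it was at 525 and 457 CPM with siControl and at 411 and 402 CPM with siSbsn, the only member whose siSbsn libraries both lay below the siControl libraries there, and the difference of -0.31 did not pass the test (SE 0.19, adjusted p = 0.391). It was -0.18 without siControl replicate 1. Among all loci tested in batch 1, 25.6% had both siSbsn libraries below both siControl libraries, and in batch 2, where this held for 0 members, 9.15% had all 3 below. *Klk10*, *Klk11*, the *Prss8* row and *Spint1* differed by -0.07 to -0.02, with adjusted p from 0.675 to 0.910 and intervals that reached no further than -0.31 and 0.24. The intervals of these 4 genes, *Klk7* and *St14* did not reach a change of 0.5 in either direction, while those of *Klk5* and *Spink5* reached a rise and those of *Klk6* and the *Klk8* row a fall of that size.

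Within the batches, 0 members were called in either. In batch 1, 0% of 13176 loci were called by edgeR and 15.8% had an unadjusted p under 0.05, and the members ranged from -0.58 to 0.63, with 1 of them under 0.05 before adjustment. In batch 2, 0.00774% of 12924 loci were called, which is *Sbsn* alone, and 10.2% had an unadjusted p under 0.05. There the members ranged from -0.17 to 0.17, again with *Spink5* alone under 0.05. The interaction of batch and treatment called 0 members and 0% of 13419 loci, with 1991 loci and 1 member at an unadjusted p under 0.05. DESeq2 called 165 loci in batch 1, 7 in batch 2 and 165 for the interaction, and limma-voom 0, 1 and 0, with 0 members among them.

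Among the other genes of the network, 0 of 25 proteases, 0 of 16 inhibitors and 0 of 18 substrates were called between siSbsn and siControl over both batches. Before adjustment 7, 5 and 8 of them had a p under 0.05 (edgeR), as had 18.9% of all loci tested. Their medians were 0.07, 0.02 and 0.27 on the log2 scale, beside 0.01 over all loci. The list was chosen with earlier results of these data known, so these counts are a description only. *Cdsn* differed by 0.14 (SE 0.14, adjusted p = 0.538).

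The libraries without siRNA were made in batch 1 only. The labels and methods do not say whether these cultures received the transfection reagent. *Spink5* was at 1319 and 1040 CPM without siRNA, above both siControl libraries and on either side of the siSbsn libraries. Against no siRNA, siControl differed by -0.57 (SE 0.23, adjusted p = 0.308) and siSbsn by 0.06 (SE 0.23, adjusted p = 1.00). *Klk6* and *St14* were higher in both siControl libraries than in both libraries without siRNA, with differences of 0.46 (adjusted p = 0.361) and 0.33 (adjusted p = 0.361). Of all loci tested, 27.2% had both siControl libraries above those without siRNA and 27.6% had both below, as *Spink5* had. Without siControl replicate 1 the differences were 0.09 for *Klk6*, 0.20 for *St14* and -0.38 for *Spink5*, and without siControl replicate 2 they were 0.75 for *Klk6* (adjusted p = 0.0484, a call, edgeR), 0.45 for *St14* and -0.80 for *Spink5*. *Klk11*, at 118 and 101 CPM without siRNA and 134 and 120 CPM with siSbsn, was the only member with both siSbsn libraries above both libraries without siRNA (difference 0.22, adjusted p = 1.00). That order was found in 8.13% of all loci tested, and the reverse, which no member showed, in 8.42%. For siControl against no siRNA edgeR called 0 members and 0% of 13176 loci, with 1 member and 2116 loci at an unadjusted p under 0.05. For siSbsn against no siRNA it called 0 members and 0% of 13176 loci, with 0 members and 23 loci at an unadjusted p under 0.05. DESeq2 called 25 loci in the first and 0 in the second, with 0 members in both. These comparisons share libraries with each other and with the comparison of siSbsn and siControl.

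**Figure D4:**
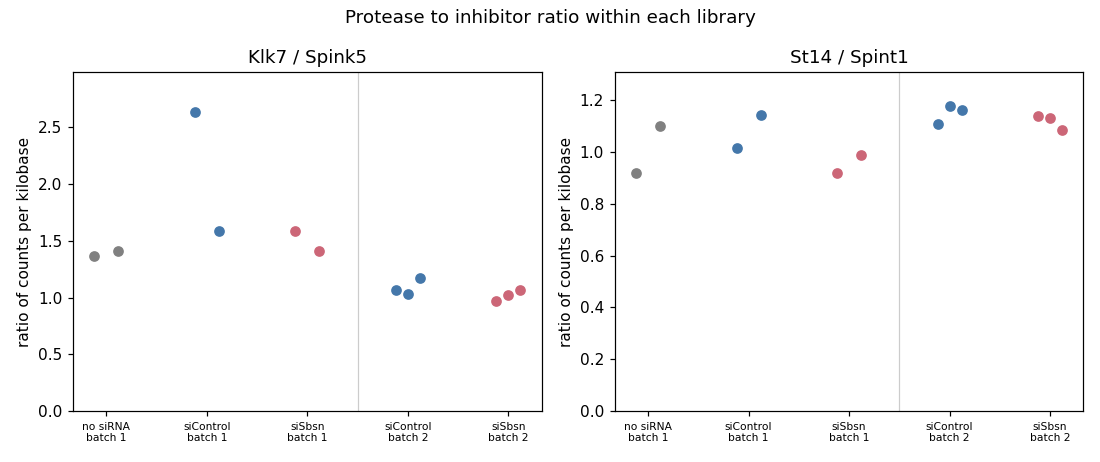
Ratio of counts per kilobase of *Klk7* to *Spink5* (left) and of *St14* to *Spint1* (right), on axes from 0, in each of the 12 libraries by treatment and batch. Points are libraries, and the highest *Klk7* to *Spink5* ratio, 2.64, is that of siControl replicate 1 of batch 1.

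The balance of a protease and its inhibitor was described by the ratio of their counts per kilobase within a library, which does not depend on library size. For *Klk7* over *Spink5* it was 1.37 and 1.41 without siRNA, 2.64 and 1.59 with siControl, and 1.58 and 1.42 with siSbsn in batch 1. In batch 2 it was 1.06, 1.03 and 1.18 with siControl and 0.971, 1.03 and 1.07 with siSbsn. All 6 libraries of batch 1 lay above all 6 of batch 2, while the siControl and siSbsn libraries of batch 2 overlapped. For *Klk5* over *Spink5* the ratio was 0.101 to 0.369 in batch 1 and 0.121 to 0.162 in batch 2, and the batches overlapped. For *St14* over *Spint1* it was 0.920 to 1.15 in batch 1 and 1.08 to 1.18 in batch 2, a narrow range over the 12 libraries. The size of this ratio depends on the single-exon annotation of *St14*. After the mean of each batch was subtracted, the log2 levels of *St14* and *Spint1* had a Pearson r of 0.68. It was 0.075 without siControl replicate 1 of batch 1. These are ratios of transcripts, and protease activity was not measured.

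Over the 12 libraries, after the mean of each batch was subtracted, the members' log2 levels correlated with a median Pearson r of 0.58 over their pairs, as a description without a test. The libraries share treatments and siControl replicate 1 of batch 1 stands apart in many genes. Every member ranged more widely in batch 1 than in batch 2, as *Klk5* did with 2.42-fold against 1.26-fold from lowest to highest library. The correlations therefore rest mainly on the 6 libraries of batch 1. No median over pairs of other loci is given beside them. The highest values were those of *Klk6* with the *Klk8* row (r = 0.98) and of *Klk10* with *Klk11* (0.98), and *Klk10* and *Klk11* each had an r of 0.97 with *Spint1*. *Spink5* had an r of -0.91 with *St14*, -0.73 with *Klk6*, -0.67 with both the *Klk8* row and the *Prss8* row, -0.50 to -0.45 with *Spint1*, *Klk11* and *Klk10*, -0.009 with *Klk5* and 0.39 with *Klk7*. Without siControl replicate 1 of batch 1, an alternative chosen after the data were seen, its values were -0.72 with *St14*, -0.17 with *Klk6*, 0.15 with the *Klk8* row, 0.76 with *Klk5* and 0.81 with *Klk7*, so several of them rest on that library. The median over all pairs was then 0.53, and *Klk6* with the *Klk8* row and *Klk10* with *Klk11* both had 0.94. Among 13552 loci, the patterns most like that of *Klk5* were those of the joined row *Elovl1* and *Cdc20* (r = 0.995) and of *Acot1* (0.993), and those most like that of *Klk7* were *Serpinb8* (0.980) and *Tspan15* (0.972). Closest to *Spink5* were *Ssfa2* and *Mpzl2* (0.987 each), and closest to *St14* were *Bloc1s5* and *Rnf166* (0.986 each). Without that library these 8 values were 0.959 to 0.994. They describe likeness within the batches only. With the batch means kept, r with *St14* was 0.106 for *Bloc1s5* and -0.325 for *Rnf166*, while the other pairs had 0.865 to 0.998.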

How the data were processed

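RNA-Seq counts of primary mouse keratinocyte cultures were analysed in 12 libraries, grouped by the treatment and batch in the sample labels. The authors aligned the reads to mm10 with STAR, kept unique alignments and deposited whole-number counts per UCSC KnownGene locus, without normalization, in which overlapping genes are joined into 1 row. The sources used here do not state the strand setting of the counting, so reads of *Prss8* and *Kat8*, which overlap on opposite strands, cannot be told apart. Rows that join names by a comma were left out. The 4 such rows with a listed gene held at most 2 counts in a library.

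TMM factors were computed and the quasi-likelihood F test in edgeR 4.0.16, run in R 4.3.3, was applied to all loci passing filterByExpr, with batch and treatment in the model for the comparison over both batches and Benjamini-Hochberg adjustment. A call needed a log2-fold change beyond 0.5 in either direction and an adjusted p under 0.05. The standard error is the absolute log2-fold change over the square root of F, and 95% intervals use the t quantile at the degrees of freedom of that test. The study's methods used DESeq2, and DESeq2 1.42.0 and limma-voom 3.58.1 were run as alternatives, as were other size factors, no filter, a correction for gene length (found for 95.38% of the 13211 loci tested), a replicate block, and leaving out each library. The test script was tried on simulated data. Log2 levels used a pseudocount of 0.5 CPM, and lengths are those of the longest GENCODE transcript. Total counts of 27934836 to 49553923 leave counting error small for every listed gene, which had at least 369 counts in each library.

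The listed genes, the list of related genes and the markers were chosen with earlier results of these data known. By the rule for names, the text gives every listed gene, *Sbsn*, the 2 called related genes of each side with the largest rise and fall between the batches and between siSbsn and siControl, and the 2 loci of most like pattern for *Klk5*, *Klk7*, *Spink5* and *St14*. The other kallikreins of the cluster, *Cdsn* under siSbsn and the single marker genes in the text were named after their values were seen.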

Additional observations from a re-analysis of the deposited data

How the results depend on the processing

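Of 537 values of the listed genes under an alternative, 497 kept their direction and their side of the threshold. Without siControl replicate 1 of batch 1 and without both number 1 siRNA libraries of batch 1, 7 listed genes were called between the batches, and 7 to 9 were when each library was left out. *Spink5* was not called over both batches in any alternative, with 0.23 to 0.49 on the log2 scale. The fit with the replicate number of batch 1 as a block called 0 loci over both batches (4177 at an unadjusted p under 0.05) and gave *Spink5* 0.38 (adjusted p = 0.115). It called 0 listed genes, with 3 at an unadjusted p under 0.05. The numbers are shared by the groups but not stated to mark pairs (correlations of their deviations 0.457, 0.379 and 0.805), so the block was not used elsewhere.

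Counts of called loci depended on the tool and on single libraries. Over both batches DESeq2 called 92 loci and 79 with its beta prior, and 1 (*Sbsn*, -1.47) was called without both number 1 libraries. In batch 1 there were 851 without a filter, 165 with DESeq2, 1294 with all 12 libraries in 1 fit (1 of them listed, *Spink5*), and 0 to 2618 when a library was left out, the highest without siControl replicate 2, with 0 to 2 listed genes (*Klk8* row, -1.01, and *Spink5*, 0.86). In batch 2 there were 9 without a filter, 7 with DESeq2, 0 with all 12 libraries, 7 with the length trend removed and 1 to 10 with a library left out, the highest without siControl replicate 3. For the interaction there were 17 without a filter, 165 with DESeq2 and 0 to 4362 with a library left out, the highest without siControl replicate 2 of batch 1, with 0 to 3 listed genes, and 411 without siSbsn replicate 2. For siControl against no siRNA there were 815 without a filter, 25 with DESeq2 and 0 to 3213 with a library left out, again without siControl replicate 2, with 0 to 3 listed genes. Between the batches, siControl libraries alone gave 1940 calls, 1387 higher and 553 lower in batch 1, against 2854 and 2170.

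The sign turned, in values that were not called, as follows. Over both batches, *Klk10*, *Klk11*, the *Prss8* row and *Spint1* were at 0.22, 0.24, 0.11 and 0.10 with the length trend removed and at 0.053, 0.058, 0.047 and 0.019 without both number 1 libraries. Leaving out a library gave -0.097 to 0.083 for *Klk10*, -0.083 to 0.086 for *Klk11*, -0.068 to 0.29 for *Klk5*, -0.12 to 0.030 for the *Prss8* row and -0.068 to 0.040 for *Spint1*. In batch 1 *Sbsn* was at -0.14 with limma-voom, -0.13 with the replicate block and -0.90 to 0.59 with a library left out, the *Klk8* row at -1.01 to 0.040, and *Klk6* at 0.017 with the length trend removed. Between the batches the *Prss8* row was at -0.22 with that trend removed and -0.046 to 0.14 with a library left out. Against no siRNA, *Klk6* with siControl was at -0.067 with the trend removed, and *Spink5* with siSbsn at -0.10 to 0.24 with a library left out. The cause was not tested. With 2 libraries a condition in batch 1, the spread there rests on few libraries, and the differences of all 10 listed genes in batch 2 lay within their 95% intervals of batch 1.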
